A study of Mus musculus with 8 samples.

Results

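Osteopontin, the secreted glycoprotein encoded by Spp1, and the genes of its cell-surface receptors were examined in sorted pituitary gonadotropes of male and female mice. The members were the 10 rows of the count table with the symbols Spp1, Gm42793, Cd44, Itgav, Itga4, Itga5, Itga9, Itgb1, Itgb3 and Itgb5, out of 55523 entries, and all 10 passed the filter on low counts. Gonadotropes are the pituitary cells that make luteinizing and follicle-stimulating hormone. They were collected by fluorescence-activated sorting of EGFP-positive cells from Ad4BP-BAC-EGFP mice, whose transgene places EGFP under the regulatory sequence of Nr5a1 (Ad4BP), so the sorted cells are those in which this transgene was active. Libraries for mRNA sequencing were made from total RNA of 4 female and 4 male samples. Every sample, in both sexes, carried the transgene, no treatment was named, and the age of the mice is not given in the sources used here. The study left male replicate 1 out, so the sexes are compared over 3 males (replicates 2 to 4) and 4 females, with male replicate 1 given apart. The labels do not say whether the samples came from separate animals, and p-values therefore measure only the spread between these samples.

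Osteopontin belongs to the SIBLING family of acidic, secreted phosphoproteins, known from bone matrix, milk, kidney and activated macrophages. Its Arg-Gly-Asp motif is bound by integrins that contain the alpha V subunit (with beta 1, beta 3 or beta 5) and by alpha 5 beta 1, while a neighbouring motif exposed by thrombin cleavage is bound by alpha 4 beta 1 and alpha 9 beta 1. An integrin is an obligate pair of an alpha and a beta subunit, and the hyaluronan receptor CD44 is a further, non-integrin receptor.

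Depth was 18774578 to 31302588 counts per sample, so that 3 counts corresponded to 0.0921 to 0.146 CPM (counts scaled to library size with TMM factors over the 8 samples). Summed gonadotrope markers (Lhb, Fshb, Cga, Gnrhr and Nr5a1) were 21488 to 34863 CPM in females, 67930 to 75717 CPM in males and 28423 CPM in male replicate 1. Nr5a1 itself was at 862 to 1266 CPM in females and 584 to 801 CPM in males, but at 16.3 CPM in male replicate 1, which therefore stood apart in the gene that the sort relies on. Malat1, a nuclear RNA, was at 110079 CPM in that sample against 7790 to 15167 CPM in the other 7. Xist was at 215 to 414 CPM in females and at most 3.67 CPM in males, while the Y-linked Ddx3y was at most 0.368 CPM in females and at least 152 CPM in males. Markers of other pituitary hormone cells were also present, with a summed level of 36434 to 98161 CPM in females and 93876 to 187014 CPM in males. Endothelial markers summed to 542 to 719 CPM in females, 573 to 764 CPM in males and 871 CPM in male replicate 1. The part of endothelial cells in the receptor levels given below was not tested.

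Spp1 lies on chromosome 5 (chr5:104435118-104441050, plus strand, mm10), and its transcript was the most abundant of the set per kilobase of exon in every group. The region before its start is shown because the sexes did not overlap in Spp1 and the cells were sorted by a reporter of Nr5a1, the gene of the transcription factor Ad4BP. RefSeq (GRCm38.p6) gives Spp1 a start at position 104435111 and another one 1081 bases away, and the 250 bases before the former, chr5:104434861-104435110, read 5′ to 3′ on the plus strand with the core motif of RUNX factors in capitals:

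Spp1 promoter: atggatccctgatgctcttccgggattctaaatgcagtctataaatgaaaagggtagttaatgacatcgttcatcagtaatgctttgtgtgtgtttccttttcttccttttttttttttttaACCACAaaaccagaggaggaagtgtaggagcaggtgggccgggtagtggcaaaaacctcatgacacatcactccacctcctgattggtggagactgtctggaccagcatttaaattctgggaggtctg

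The RUNX core ACCACA, searched on both strands, occurred once in these 250 bases, at position -128 from the start, and in 14.0% of the 32851 mouse promoters of the same length. The half-site of Ad4BP, AGGTCA, and the longer CAAGGTCA that contains it had 0 matches there, against 14.0% and 1.33% of all promoters. No match says only that these letters are not in this window. Of the 10 members, 8 had a promoter in the RefSeq table, none of their 9 windows held AGGTCA on either strand, and the ACCACA core was also found before Itga4.

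Spp1 was at 435, 223, 568 and 145 CPM in female replicates 1 to 4, and at 3670, 644 and 2465 CPM in male replicates 2, 3 and 4. Each of these males was above every female, but male replicate 3 exceeded female replicate 3 only narrowly. Male replicate 1, at 1085 CPM, was between these males and above all females. Males over females, the log2 fold change was 2.70 (SE 0.66, 95% interval 1.14 to 4.26), a 6.49-fold difference, with an adjusted p of 0.0818 in edgeR's quasi-likelihood test, which did not pass the threshold of 0.05. The exact two-sided permutation test gave p = 0.0286, the smallest that 3 against 4 samples allow. With DESeq2 the adjusted p was 0.00127. The spread within each sex was wide, the highest sample being 3.92 times the lowest among females and 5.70 times among males. Among the 10449 genes with a mean of at least 10 CPM, 7.71% had a larger ratio between males.

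Markers of cells that are known to make osteopontin were compared beside it. The summed level of the macrophage and microglia markers was 35.1 to 73.7 CPM in females, 52.2 to 74.7 CPM in males and 42.0 CPM in male replicate 1, and 0 of the 9 markers tested passed the threshold. The pan-leukocyte gene Ptprc was at 0.599 to 1.53 CPM in females and 1.09 to 3.47 CPM in males, and Csf1r, the macrophage growth factor receptor, at 2.27 to 3.85 and 1.62 to 2.99 CPM. The gonadotrope sum given above was higher in each of these males than in any female, but it was carried by the hormone subunit genes Fshb, called with means of 2904 CPM in females and 26089 CPM in males (edgeR adjusted p = 0.0449), and Cga. Lhb, Cga and Gnrhr overlapped between the sexes, and Nr5a1 was lower in these males than in any female (log2 fold change -0.61, edgeR adjusted p = 0.130). Of the 8 markers of other hormone cells, 1 was called, Pou1f1, with means of 26.7 CPM in females and 106 CPM in males (edgeR adjusted p = 0.0494). Tshb (52.4 and 273 CPM, edgeR adjusted p = 0.0525) and Gh (42237 and 94908 CPM, edgeR adjusted p = 0.289) did not pass. Both were higher in each of these males than in any female. The other 5, Prl, Pomc, Tbx19, Ghrhr and Crhr1, overlapped between the sexes, with log2 fold changes from -0.66 for Crhr1 to 1.52 for Ghrhr, and the sum of the list overlapped narrowly. Leaving out any single sample ended the call of Pou1f1 (edgeR adjusted p from 0.0747 to 0.147), and leaving out any but female replicate 4 ended that of Fshb (from 0.0722 to 0.135, and 0.0325 without that sample). The part of these cells in the Spp1 difference was not tested, and in these bulk samples more cells of a type and more RNA per cell cannot be told apart.

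Gm42793 (chr5:104435121-104436372, plus strand) is a single-exon gene model of 1252 bases, of the annotation class that awaits experimental testing, at the start of Spp1, on the same strand. It shares 309 bases with Spp1 exons, and the other 943 bases lie outside them. It was at 1.92, 0.634, 2.98 and 4.50 CPM in the 4 females and at 16.5, 20.9 and 16.8 CPM in male replicates 2 to 4. The males lay close together and clearly above the females, and male replicate 1, at 3.32 CPM, fell within the female range. Males over females, it came to 2.81 on the log2 scale (SE 0.55, 95% interval 1.51 to 4.12), with an adjusted p of 0.0525 in edgeR, 6.6e-05 in DESeq2 and an exact permutation p of 0.0286. At the default settings of the counter the authors name, reads that overlap exons of both entries would be left out of both. The 2 entries share an assembled locus name, so how shared reads were handled here is not known. Unspliced Spp1 RNA from the other bases could be counted as Gm42793, so the 2 entries are not independent measurements of the locus.

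The 2 entries did not follow each other in proportion. As a percentage of the Spp1 count, Gm42793 was 0.442, 0.284 and 0.524% in female replicates 1 to 3 and 3.11% in female replicate 4. In males it was 0.449% in replicate 2, 3.25% in replicate 3 and 0.683% in replicate 4, and 0.306% in male replicate 1. The highest percentage in each sex was in the sample with the lowest Spp1 level.

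**Figure D1:**
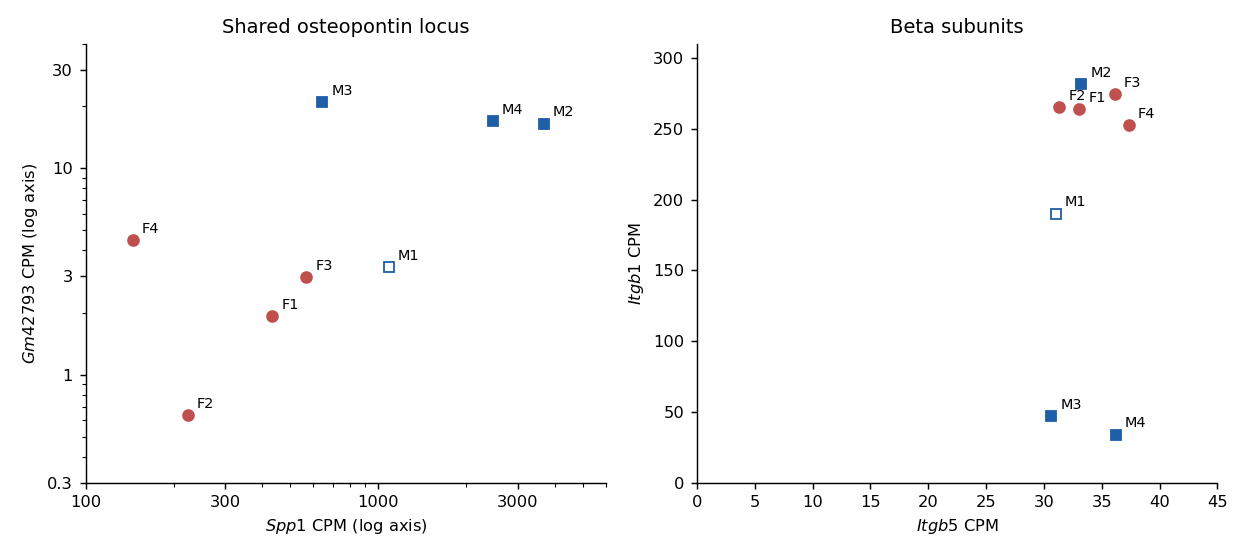
Each point is 1 sample (red circles females F1 to F4, blue squares males M2 to M4, open square male replicate 1). Left, Gm42793 against Spp1 in CPM on log axes, where M3 has the highest Gm42793 (20.9 CPM) with the lowest male Spp1 (644 CPM). Right, Itgb1 against Itgb5 in CPM from 0, where M3 and M4 are far below the rest in Itgb1 while Itgb5 is within 30.7 to 37.4 CPM in all 8 samples.

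Cd44 (chr2:102811141-102901665, minus strand) encodes the hyaluronan receptor. It was at 3.59, 6.73, 5.52 and 3.76 CPM in females and at 4.65, 4.98 and 6.40 CPM in males. All males lay inside the female range, and male replicate 1 was lowest of all at 1.66 CPM. In log2 terms the males were at 0.09 relative to the females (SE 0.29), and its 95% interval, -0.60 to 0.78, leaves room for differences of either sign (edgeR, adjusted p = 0.907).

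Itgav (chr2:83724397-83806916, plus strand) encodes alpha V, the partner of several beta subunits in the receptors of the Arg-Gly-Asp motif. It was at 39.0, 51.4, 53.1 and 37.4 CPM in females and at 67.1, 52.2 and 41.1 CPM in males. The sexes overlapped, and male replicate 1 was again the lowest sample, at 18.8 CPM. Its log2 fold change was 0.21 (SE 0.22, 95% interval -0.31 to 0.73, edgeR adjusted p = 0.680). The annotation places 634 exonic bases of the processed transcript Gm13684 on the opposite strand, and Gm13684 was at most 2.01 CPM. The default counting the authors name takes no account of strand and would leave reads over both exons out of both entries. Whether this held for these counts was not tested.

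Itgb1 (chr8:128685654-128733200, plus strand) encodes beta 1, the partner of alpha 4, alpha 5, alpha 9 and, in part, alpha V. It was at 264, 266, 275 and 253 CPM in females, at 282 CPM in male replicate 2, and at 46.9 and 33.9 CPM in male replicates 3 and 4. Females and male replicate 2 thus formed a tight cluster, male replicate 1 was below it at 190 CPM, and the remaining males were far lower. The log2 fold change was -1.17 (SE 0.71, 95% interval -2.83 to 0.49, edgeR adjusted p = 0.425). Without male replicate 2 it was -2.73 with an adjusted p of 0.00920, so this sample alone decided the call, and DESeq2 gave Itgb1 no adjusted p. The neighbouring entry Nrp1 was at 49.4 to 68.6 CPM in males and 39.6 to 60.2 CPM in females and showed no such drop. Counts follow an assembled annotation, and whether reads of Itgb1 were assigned to another entry in male replicates 3 and 4 was not tested, so its CPM in these samples may not be its RNA level.

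The within-sex spread of Itgb1 was at opposite ends in the 2 sexes. Its female ratio of highest to lowest sample was 1.09, and only 1.42% of the 10449 genes with at least 10 CPM had a smaller one. Its male ratio was 8.30, and 5.98% of genes had a larger one. The median ratio over these genes was 1.53 in females and 1.34 in males. These ratios span 4 females but 3 males and tend to grow with the number of samples, so the 2 medians are not directly comparable.

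Itgb3 (chr11:104608000-104670476, plus strand) encodes beta 3, which pairs with alpha V and, in platelets, with alpha IIb. It was at 3.46, 5.32, 2.61 and 2.77 CPM in females and at 10.05, 4.38 and 6.45 CPM in males, with 3.84 CPM in male replicate 1. Males were higher on average but overlapped with females. Its log2 fold change was 0.94 (SE 0.38, 95% interval 0.05 to 1.83), with an adjusted p of 0.228 in edgeR. The platelet and erythroid markers summed to 142 to 440.5 CPM in females and 63.2 to 176 CPM in males, a sum made up almost wholly of the globin genes Hbb-bs and Hba-a1. Of the platelet genes in the list, Ppbp was at 1.28 to 7.87 CPM in females and 1.81 to 4.77 CPM in males, and the platelet factor gene Pf4 was at 0 to 2.20 CPM in females and at 0 in male replicates 2 to 4.

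Itgb5 (chr16:33829665-33949338, plus strand) encodes beta 5, which pairs with alpha V. At 33.1, 31.3, 36.2 and 37.4 CPM in females, 33.2, 30.7 and 36.2 CPM in males and 31.0 CPM in male replicate 1, it was the member with the smallest ratio of highest to lowest sample. The sexes overlapped. Its log2 fold change was -0.08 (SE 0.14, edgeR adjusted p = 0.832), with the narrowest interval of the set, -0.42 to 0.26.

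Itga4 (chr2:79255426-79333123, plus strand) encodes alpha 4, a receptor subunit best known from leukocytes. It was at 19.8, 15.3, 18.2 and 25.1 CPM in females, at 21.2, 27.6 and 10.6 CPM in males and at 31.1 CPM in male replicate 1. Male replicates 3 and 4 lay on opposite sides of the female range. With these values the log2 fold change was -0.02 (SE 0.33, 95% interval -0.80 to 0.76, edgeR adjusted p = 0.982). Cerkl shares 1124 exonic bases with Itga4 on the opposite strand and was at 2.98 to 9.42 CPM over the 8 samples.

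Itga5 (chr15:103344286-103366763, minus strand) encodes alpha 5, the subunit of the classical fibronectin receptor. It was at 10.3, 6.68, 6.51 and 7.52 CPM in females and at 3.98, 6.002 and 3.91 CPM in male replicates 2 to 4. All females were above these males, whereas male replicate 1 had the highest value of all, 13.01 CPM. Between the sexes the log2 fold change was -0.78 (SE 0.26, 95% interval -1.39 to -0.16), with an adjusted p of 0.165 in edgeR and an exact permutation p of 0.0286. With all 8 samples it was -0.21 with an adjusted p of 0.928.

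Itga9 (chr9:118606690-118901003, plus strand) encodes alpha 9, which binds the thrombin-exposed motif of osteopontin. It was at 8.34, 6.15, 8.19 and 6.23 CPM in females, at 0.315, 8.53 and 3.13 CPM in males and at 6.02 CPM in male replicate 1. Male replicate 2, with 8 counts, was far below every other sample, and male replicate 3 was the highest. The log2 fold change was -0.88 (SE 0.83, 95% interval -2.84 to 1.07, edgeR adjusted p = 0.633). Without male replicate 2 it was -0.34 and without male replicate 3 it was -2.08 (edgeR adjusted p = 0.785 and 0.318), so the size rested on single samples.

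**Figure D2:**
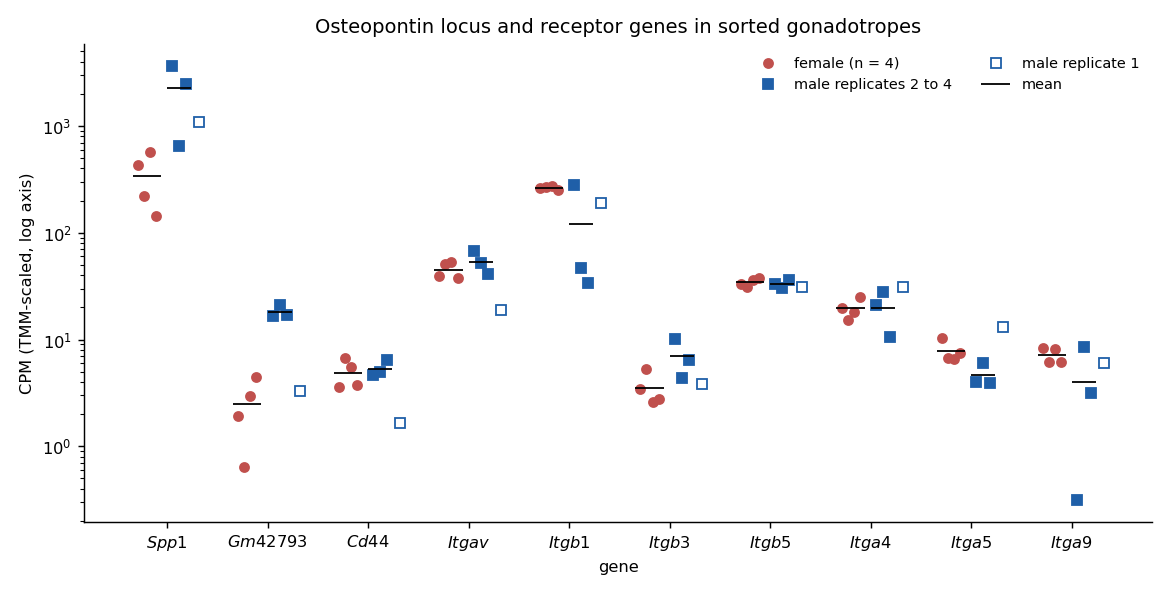
CPM of the 10 genes on a log axis in each sample (red circles females, filled blue squares male replicates 2 to 4, open squares male replicate 1, black bars the means of 4 females and 3 males). The sexes do not overlap in Spp1, Gm42793 and Itga5. Itgb1 in males and Itga9 in males have the widest scatter, from 33.9 to 282 CPM and from 0.315 to 8.53 CPM.

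Over the whole set, 0 of the 10 members passed the adjusted threshold in edgeR, against 2.34% of the 20152 genes tested (471 genes). At an unadjusted p under 0.05 there were 4, namely Spp1, Gm42793, Itgb3 and Itga5, against 19.9% of all genes. DESeq2 called 2, both at the osteopontin locus, against 11.7% of the 19985 genes to which it gave an adjusted p. The sexes did not overlap in 3 members, against 22.3% of all genes, so that the share of members was near the background. The median log2 fold change was 0.04 for the 10 members, -0.05 for the 8 receptor genes and -0.03 for all genes tested.

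**Figure D3:**
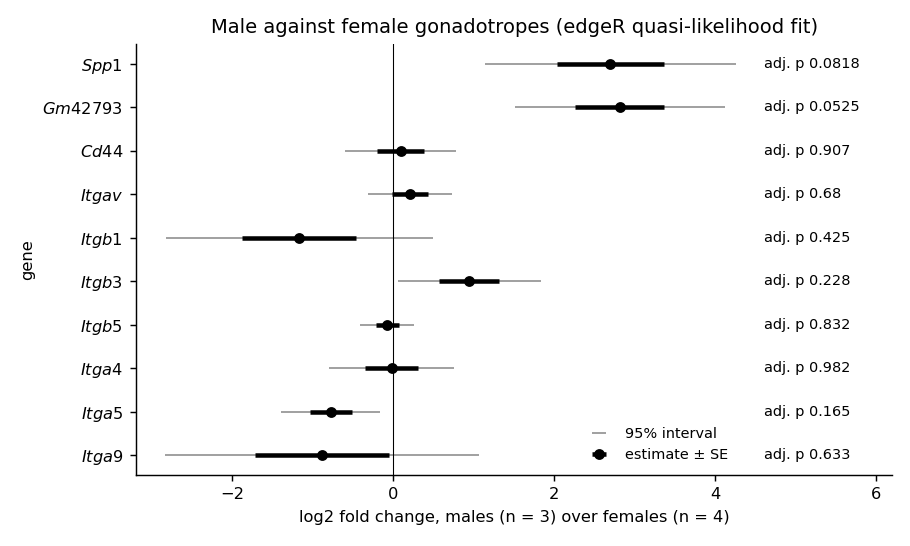
Difference of males (n = 3) from females (n = 4) as log2 fold change for each gene from the edgeR quasi-likelihood fit, with the SE (thick line), the 95% interval (thin line) and the adjusted p. The intervals of Spp1, Gm42793, Itgb3 and Itga5 exclude 0, and no adjusted p is below 0.05.

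Levels were compared between genes per kilobase of the exon union (CPM per kb). In females the order was Spp1 at 208 ± 118 (SD, n = 4), Itgb1 at 64.8 ± 2.23, Itgb5 at 9.70 ± 0.780, Itgav at 4.21 ± 0.761, Gm42793 at 2.003 ± 1.31 and Itga5 at 1.57 ± 0.361. Below them were Itga4 at 1.40 ± 0.295, Itga9 at 0.940 ± 0.156, Cd44 at 0.723 ± 0.221 and Itgb3 at 0.600 ± 0.211. Sample ranges of neighbours in this order did not overlap from Spp1 down to Itgav, nor between Itga4 and Itga9, and overlapped between all other neighbours. The order depends in part on the length used. With the longest single transcript, Itgav was at 6.41 CPM per kb in females and 7.58 in males, and 7 of the 10 genes kept their rank in females, Itga4 moving above Gm42793 and Itga5. Among receptor genes of females, beta 1 was therefore highest, followed by beta 5 and alpha V.

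In males Spp1 was at 1371 ± 925 CPM per kb (SD, n = 3), followed by Itgb1 at 29.6 ± 34.2, Gm42793 at 14.4 ± 1.97, Itgb5 at 9.39 ± 0.787 and Itgav at 4.98 ± 1.22. Itga4 at 1.42 ± 0.614, Itgb3 at 1.18 ± 0.486, Itga5 at 0.938 ± 0.241, Cd44 at 0.789 ± 0.137 and Itga9 at 0.519 ± 0.543 followed. Among these last 5 genes the ranges of neighbours overlapped, and Itga4 lay below the range of Itgav. Itgb1 and Gm42793 overlapped as well, because Itgb1 was at 8.31 CPM per kb in male replicate 4 and at 69.0 in replicate 2. Without male replicate 2 the mean of Itgb1 was 9.90, and without replicate 2 or 3 only 6 of the 10 genes kept their rank.

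The ligand was set against the sum of its 8 receptor genes, both per kilobase. Spp1 was 3.17, 1.62, 3.94 and 1.08 times that sum in the 4 females and 24.9, 12.7 and 56.8 times in male replicates 2 to 4, with 10.4 in male replicate 1. All males were above all females, and the ratio of the males contains the low Itgb1 of male replicates 3 and 4 as well as the high Spp1. The doubt about the counts of Itgb1 in these samples applies to the ratio too. With Itgb1 left out of the sum, a choice made after seeing the data, Spp1 was 14.2, 7.23, 17.2 and 4.59 times the remaining receptor sum in females and 109, 20.3 and 83.0 times in males, so that male replicate 3 was only narrowly above female replicate 3. Itgb1 made up 76.4 to 77.6% of the receptor sum in females, 77.2% in male replicate 2, 37.4% in replicate 3, 31.6% in replicate 4 and 73.2% in male replicate 1.

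Within the alpha subunits, shares of the summed level of Itgav, Itga4, Itga5 and Itga9 were taken in each sample. Itgav held 51.7 ± 7.88% in females (SD, n = 4) and 63.9 ± 9.94% in males (SD, n = 3), and Itga4 held 17.4 ± 4.41% and 17.4 ± 4.21%. Itga5 held 19.4 ± 4.51% in females and 12.1 ± 2.38% in males without overlap, and Itga9 held 11.5 ± 1.49% and 6.54 ± 5.83%. In exact permutation tests of the 4 shares, the p was 0.171 for Itgav, 1 for Itga4, 0.0571 for Itga5 and 0.114 for Itga9. The lowest value after Benjamini-Hochberg adjustment of these exact tests was 0.229. Since an exact p cannot go below 0.0286 here, a single share could not have passed 0.05 after this adjustment, and the missed threshold says nothing on whether the shares differ. Male replicate 1 had another composition, with 23.6% Itgav, 30.1% Itga4, 35.7% Itga5 and 10.6% Itga9.

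**Figure D4:**
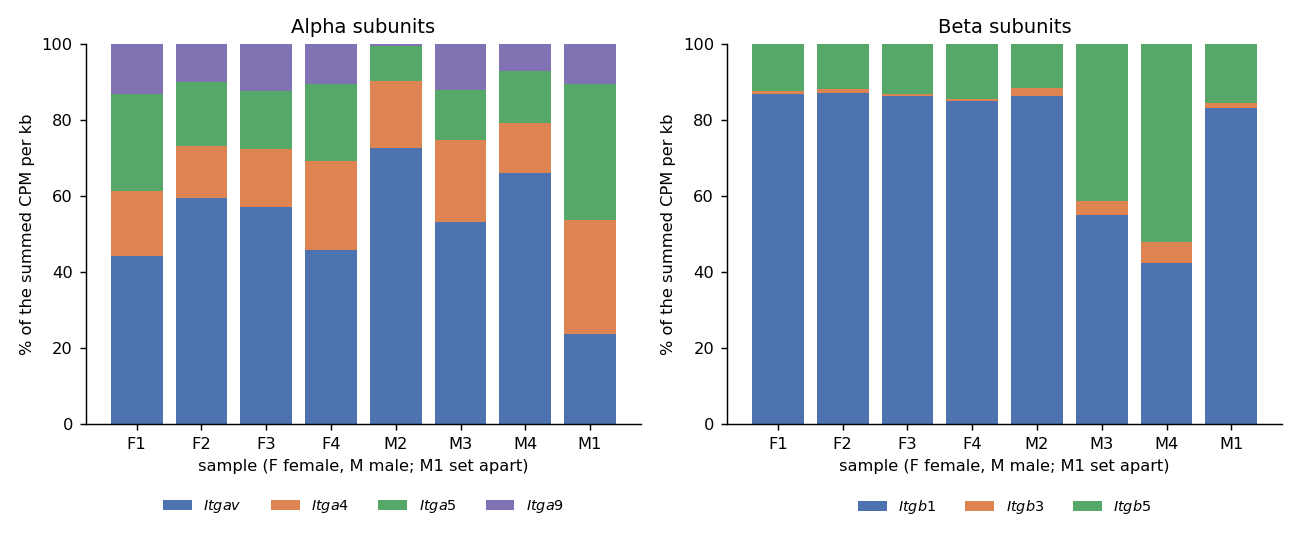
Stacked shares of the alpha subunits (left) and beta subunits (right) in the summed CPM per kb of each sample, from 0 to 100% (F females, M males). Itgav is the largest alpha share in all samples but M1, where Itga5 holds 35.7%. Itgb1 is the largest beta share except in M4, with 55.1% in M3 and 42.4% in M4, the samples in which its counts are in doubt.

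Other genes of the pathway were taken from 6 lists (other SIBLING proteins, other integrin subunits, enzymes that modify osteopontin, integrin adaptors and kinases, other ligands of these integrins, and ligands and partners of CD44). Of 97 genes listed, 86 were tested and 4 passed the threshold, which is 4.65% against 2.34% of all genes, with 1 higher in males and 3 in females. Their median log2 fold change was -0.15.

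Among the 16 other integrin subunits tested, Itga2 alone was called. It encodes alpha 2, the collagen-binding partner of beta 1, and was at 3.34, 1.66, 1.72 and 3.33 CPM in females and at 8.23, 14.0 and 11.8 CPM in males, without overlap, with 10.3 CPM in male replicate 1. It was higher in males by a log2 fold change of 2.14 (SE 0.35, edgeR adjusted p = 0.0378). Itga3 and Itga6, which encode laminin-binding subunits, had the highest levels per kilobase of this list. Itga3 was at 65.0 to 68.9 CPM in females and 40.8 to 49.98 CPM in males without overlap (log2 fold change -0.58, edgeR adjusted p = 0.0776), and male replicate 1 was above both at 107 CPM.

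Of the 27 other ligands, 3 were called, all lower in males, as were 273 of the 471 genes called among all genes. Fn1, which encodes fibronectin, the ligand of alpha 5 beta 1, was at 4.66, 12.6, 15.3 and 10.4 CPM in females and 1.497, 1.85 and 0.454 CPM in males (log2 fold change -3.11, edgeR adjusted p = 0.0494). Npnt, which encodes nephronectin, was at 43.0 to 76.0 CPM in females and 14.1 to 19.1 CPM in males (-1.86, edgeR adjusted p = 0.0201), and male replicate 1, at 59.0 CPM, lay among the females. Fbn1, which encodes the microfibril protein fibrillin 1, was at 8.19 to 17.4 CPM in females and 3.27 to 3.77 CPM in males (-1.96, edgeR adjusted p = 0.0310). The sexes did not overlap in any of these 3, nor in 22.3% of all genes tested, called or not. Stromal cells and pericytes also make these matrix proteins. Their 8 markers summed to 235 to 260 CPM in females and 264 to 514 CPM in males, but the list had a median log2 fold change of -0.23 and none of its genes was called. The higher male sum came from the pericyte gene Rgs5, with means of 108 and 277 CPM, while the collagen genes Col3a1 (log2 fold change -1.45, edgeR adjusted p = 0.0659) and Col1a1 (-1.25, 0.0945) were lower in each of these 3 males than in any female, and lay within the female range in male replicate 1 (7.77 and 7.81 CPM). Of the 7 stem and folliculostellate markers, Sox9 was called lower in males (log2 fold change -1.02, edgeR adjusted p = 0.0417), and Sox2 and Cdh1 had log2 fold changes of -0.84 and -0.88 without overlap, whereas the sum of this list, carried by Cyp2f2, overlapped. The call of Sox9 was lost without any single sample (edgeR adjusted p from 0.0580 to 0.135). The part of these cells in the 3 ligands was not tested. The matricellular Ccn1 and the milk-fat-globule gene Mfge8 were highest per kilobase in this list, at 384 to 1148 and 90.1 to 160 CPM over the 7 samples, and neither passed.

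These calls were close to the threshold. Leaving out any single sample moved Itga2 (edgeR adjusted p from 0.0598 to 0.129) and Fn1 (from 0.0536 to 0.151) past it. Fbn1 kept its call only without female replicate 3 (edgeR adjusted p = 0.0247, otherwise 0.0563 to 0.113), and Npnt lost it when male replicate 2, 3 or 4 was left out (edgeR adjusted p = 0.0792, 0.0628 and 0.0593). With all 8 samples the log2 fold change of Npnt was -1.12 (edgeR adjusted p = 0.467). Of these called genes, only Itga2 kept its call there (edgeR adjusted p = 0.0493).

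No gene passed in the remaining lists. Of the other SIBLING genes, Ibsp, Dspp and Mepe were at 0 in the 7 samples, which 3 counts per sample bound at 0.0921 to 0.146 CPM, and Dmp1 was at most 0.735 CPM in females and at 1.34 to 6.12 CPM in males (edgeR adjusted p = 0.183). Of 8 enzymes that modify osteopontin, 5 were tested, with Fam20c, the kinase that phosphorylates secreted proteins, and the transglutaminase Tgm2 the highest per kilobase. Fam20c was at 97.3 to 209 CPM in females and 188 to 234 CPM in males. Among 24 adaptors and kinases tested the median log2 fold change was -0.27, and Rap1b and Actn4 were highest per kilobase. Among 13 ligand and partner genes of CD44 the median was 0.09, and Ezr, the actin linker that binds the CD44 tail, and Cd74 were highest per kilobase.

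**Figure D5:**
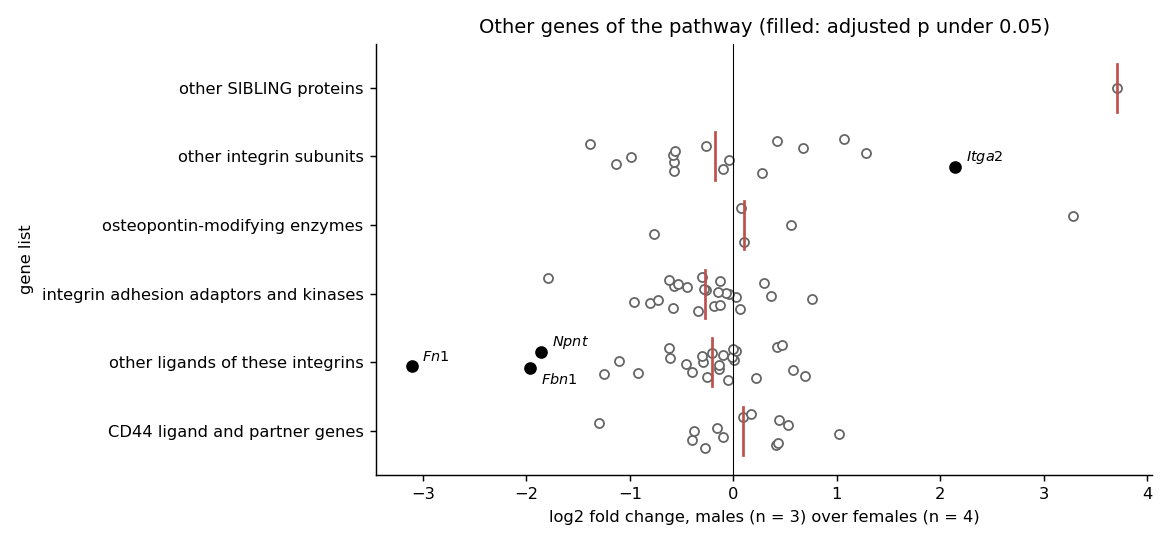
Difference of males (n = 3) from females (n = 4) as log2 fold change for each tested gene of the 6 lists (open circles not called, filled circles adjusted p under 0.05, red bars the list medians). The called genes are Itga2 to the right at 2.14 and Fn1, Fbn1 and Npnt to the left at -3.11, -1.96 and -1.86.

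The genes whose log2(CPM + 1) followed that of Spp1 most closely over the 8 samples were Nfam1 (Pearson's r 0.988, Spearman's rho 1), Lrp1b (0.969 and 0.976), Phf8 (0.953 and 0.929), Btnl9 (0.950 and 0.952) and AA986860 (0.950 and 0.905). They are the top of all genes that passed the filter, so the values are a description only, and the points share the sex difference and the library of each sample. Their ranges were much narrower than that of Spp1. Nfam1, for example, was at 2.90 to 4.17 CPM in females, 4.45 to 8.39 CPM in males and 6.199 CPM in male replicate 1. Of these 5 genes, 2 were also among the closest 5 when male replicate 1 was left out or when Spearman's rho was used. Among the members, r with Spp1 was highest for Itgb3 (0.73) and Gm42793 (0.67) and lowest for Itga9 (-0.72).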

How the data were processed

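The deposited table holds unnormalized read counts per gene for all 8 samples. The authors trimmed reads with cutadapt, aligned them with STAR to mm10 (GRCm38) and counted them with featureCounts at its default settings, which take no account of strand, as the submitters' processing notes and the study's methods state. Libraries were made from total RNA with a low-input RNA kit. Many entries carry names of an assembled-transcript form, of which the methods do not speak, and none lacked a symbol. At these settings reads that overlap more than 1 gene are left out, but how such reads were handled for the assembled entries is not stated.

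Males 2 to 4 were compared with females 1 to 4 with edgeR 4.0.16 (R 4.3.3) (quasi-likelihood test, TMM scaling, filterByExpr), with Benjamini-Hochberg adjustment over all 20152 genes tested and a threshold of 0.05. No replicate block was used, since equal replicate numbers mark no shared animal in the labels. CPM use TMM factors over 8 samples, and levels per kb divide them by the exon union in GENCODE M21. Exact permutation tests took log2(CPM + 1) over all 35 splits (scipy 1.17.1). The floor of 3 counts covers counting error only, and the 95% intervals the spread between samples. On simulated counts of this comparison, with 200 genes changed by a log2 of 3, of which 192 were among 19853 tested, 65.6% were recovered and 0% of calls were false. Alternatives were DESeq2 1.42.0, other scalings and filters, all 8 samples, a replicate block and leaving out each sample.

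Genes were named by a rule: all members, the called genes of each list (at most 4) with the 2 highest per kb, and the 5 genes most like Spp1. In the lists of cell type markers this rule was not kept. Some markers were named outside it, and some of the highest per kb were left out. The members and lists were chosen with earlier results of these data known. Gene models and RefSeq promoters use the build of the counts.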

Additional observations from a re-analysis of the deposited data

Results flagged for a closer look

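In male replicate 1, Itga5 made up 35.7% of the summed level per kb of the 4 alpha subunits, against 9.37 to 13.7% in the other 3 males. This sample lay far from the rest of its group. Over the 28 groups examined in this way, about 1.4 would be expected to hold such a sample by chance.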

How the results depend on the processing

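Of 157 alternative fold changes of the 10 members, 143 kept their direction and side of the threshold, 5 newly passed it and 9 changed sign, to sizes of at most 0.28. Under 16 alternatives Spp1 was at 2.17 to 3.14 on the log2 scale, with an adjusted p of 0.00127 to 0.351. It passed only with DESeq2 (2.71). Gm42793 passed with DESeq2, with library size only (edgeR adjusted p = 0.0477) and with at least 10 counts in every sample (0.0418), and Itgb1 without male replicate 2. Cd44 changed sign with library size only (-0.12), all 8 samples (-0.15) and the replicate block (-0.011), and ranged from -0.066 to 0.31 when single samples were left out. Itgav turned to -0.022 with all 8 samples, and Itga4 to 0.20, with -0.33 to 0.28 when single samples were left out. Library size only moved the median of all genes to -0.24 and the share of called genes that were higher in males from 42.0% to 16.5%. The number of all genes called, 471, was 808 with library size only, 177 with no filter beyond 1 count, 2329 with DESeq2, 67 with all 8 samples, 0 with the replicate block (2954 at an unadjusted p under 0.05) and 88 to 171 without single samples. The number of members called was 1 with library size only, 1 with at least 10 counts, 2 with DESeq2 and 0 to 1 without single samples. In the 6 pathway lists, 4 calls became 7 with library size only, 2 with no filter, 13 with DESeq2, 1 with all 8 samples, 0 with the replicate block and 0 to 2 without single samples. By construction the block leaves fewer degrees of freedom. The deviations of same-numbered samples correlated at -0.02, -0.01 and -0.0008, which showed no pairing by number. With so few samples this check cannot exclude it. Itga9 could not be tested with at least 10 counts. The causes of the other changes were not tested. With 3 males and 4 females, the 95% intervals of 6 of the 8 receptor genes spanned 0, and genes at 0.0921 to 0.146 CPM rest on about 3 counts.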
